A study of Mus musculus with 6 samples.

Results

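Lung fibroblasts build and maintain the connective tissue of the lung, and 10 genes that mark them were followed here in whole lung RNA. Of these genes, 4 mark the alveolar fibroblasts of the thin gas exchange walls (Pdgfra, Tcf21, Inmt and Npnt), 5 mark the adventitial fibroblasts of the cuffs around vessels and airways (Pi16, Dcn, Lum, Fbln1 and Dpt), and 1, Eln, encodes elastin. They were taken by name from the 25860 genes of the deposited count table, as markers of these cells. The study asked how chromosome instability acts on the lung of mice that lack adaptive immunity. Normal-looking lung tissue came from 2 groups of 3 untreated C57BL/6 mice aged 12 months, RAG1-/- (replicates 1, 2 and 3) and, from the same crosses, RAG1-/-Sgo1-/+ (replicates 4, 5 and 6). All 6 mice are labelled RAG1-/-, a genotype in which mature B and T cells are not formed. No group with intact Rag1 or with Sgo1-/+ alone was sequenced. The second group carried in addition 1 inactivated allele of Sgo1 (shugoshin-1, which protects the cohesion of sister chromatids at centromeres) in every cell type.

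Alveolar fibroblasts lie beside the alveolar epithelium, receive PDGF-A through the receptor PDGFRα, and store lipid and retinoid. Adventitial fibroblasts surround bronchi and larger vessels and secrete collagen-binding proteoglycans and fibulins. Elastic fibres give the lung its recoil and consist of an elastin core on a scaffold of microfibrils. In RNA of a whole tissue, fewer cells of a type and less RNA per cell cannot be told apart, and this holds for every level below.

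The sequence 250 bases upstream of the annotated start was read for the members with an entry in the RefSeq promoter set (GRCm38.p6), which were 7 of 10. Dcn, Lum and Eln had no entry. The 5 members with an entry that were all lowest in the same library, replicate 6, are shown. They were chosen by that value alone, and their order of the other libraries differed. Capitals mark the E-box CANNTG, the hexamer read by basic helix-loop-helix factors, the class to which Tcf21 belongs. It is its own reverse complement, so each match counts for both strands. Each line runs 5′ to 3′ on the coding strand of its gene and ends at the base before the start.
Pdgfra (chr5:75152001-75152250, plus strand): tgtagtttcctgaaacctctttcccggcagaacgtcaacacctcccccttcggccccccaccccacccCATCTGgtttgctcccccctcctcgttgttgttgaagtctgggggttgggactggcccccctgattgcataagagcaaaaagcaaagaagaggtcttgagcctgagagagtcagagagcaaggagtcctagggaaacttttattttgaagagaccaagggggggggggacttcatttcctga
Tcf21 (chr10:22820144-22820393, minus strand): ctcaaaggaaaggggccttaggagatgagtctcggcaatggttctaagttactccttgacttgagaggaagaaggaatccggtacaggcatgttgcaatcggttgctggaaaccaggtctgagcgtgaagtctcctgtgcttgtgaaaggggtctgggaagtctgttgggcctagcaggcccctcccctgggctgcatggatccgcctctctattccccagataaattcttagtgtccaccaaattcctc
Inmt (chr6:55174991-55175240, minus strand): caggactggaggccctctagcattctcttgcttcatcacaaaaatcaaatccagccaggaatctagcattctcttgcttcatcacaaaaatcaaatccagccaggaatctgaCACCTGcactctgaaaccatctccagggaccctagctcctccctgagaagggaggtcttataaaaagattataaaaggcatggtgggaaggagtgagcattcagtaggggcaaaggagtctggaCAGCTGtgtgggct
Dpt (chr1:164796413-164796662, plus strand): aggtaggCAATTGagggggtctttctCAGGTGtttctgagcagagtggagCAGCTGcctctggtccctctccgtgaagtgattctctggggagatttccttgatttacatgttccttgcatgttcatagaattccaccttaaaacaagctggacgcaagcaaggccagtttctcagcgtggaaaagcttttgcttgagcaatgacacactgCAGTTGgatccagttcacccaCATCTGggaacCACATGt
Pi16 (chr17:29318632-29318881, plus strand): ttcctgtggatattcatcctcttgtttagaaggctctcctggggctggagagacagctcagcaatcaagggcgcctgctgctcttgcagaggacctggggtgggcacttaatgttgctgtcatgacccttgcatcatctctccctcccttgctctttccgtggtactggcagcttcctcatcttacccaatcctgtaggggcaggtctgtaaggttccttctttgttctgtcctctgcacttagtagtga

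The E-box occurred 6 times upstream of Dpt, 2 times upstream of Inmt, 1 time upstream of Pdgfra and 0 times upstream of Pi16 and of Tcf21 itself. In the windows of the other members with an entry it occurred 0 and 2 times for Npnt and 1 and 2 times for Fbln1. Among 32851 RefSeq promoter windows of the same length, 66.2% held at least 1 E-box and 0.274% held 6 or more. The letters TATAAA, searched on both strands, were found upstream of Inmt only among the 7 members, and in 12.4% of all windows. The window of Inmt held 0 CpG dinucleotides against a median of 6 over all windows, and its GC content was 48.0% against a median of 52.4%. Neither motif was found in all 5 windows.

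The deposited counts on genes summed to 3205822 to 9366774 in a library, and 3 counts corresponded to 0.320 to 0.936 CPM (the count per 1e+06 counts of the library). Sgo1 had 6, 2 and 4 counts in RAG1-/- mice against 6, 0 and 2 in RAG1-/-Sgo1-/+ mice, too few to check the genotype. Rag1 was counted at 8 to 24 reads in every library. The library labelled RAG1-/- replicate 2 stood apart with 1853 counts of the immunoglobulin gene Igkc, 69 of Cd79a and 78 of Ms4a1, 3 genes of B cells, which the other libraries had at 8, 2 and 0 counts or fewer. These B cell transcripts go against the label of that library, and whether the mouse, the sample or the label differed was not tested. The library of RAG1-/- replicate 1 stood apart as the only one with high Xist, at 7717 counts against 8 or fewer, and the only one in which the Y-linked gene Ddx3y was near 0, at 2 counts against 342 or more. High Xist with Ddx3y near 0 is the pattern of a female mouse, and the other libraries had that of males. The study used both sexes, and the sample labels give none. The genotypes were therefore compared with 1 library of female pattern among the RAG1-/- mice and 0 among the RAG1-/-Sgo1-/+ mice. The part of sex in the values of replicate 1 was not tested. For the 10 genes, log2 fold changes that moved by more than 1.5 times or turned when either library was left out are given with and without it.

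None of the 10 fibroblast genes was called different between the genotypes. Every one passed the filter on low counts, and the lowest count of any of them in any library was 30 (Lum in replicate 6). Their adjusted P values ran from 0.832 to 0.996 in the quasi-likelihood test of edgeR with Benjamini–Hochberg correction. Over all 17231 genes tested, 0 (0%) passed an adjusted P under 0.05 with at least a 2-fold difference, and the smallest adjusted P of any gene was 0.832. At an unadjusted P under 0.05 there was 1 of the 10 members, Lum, beside 5.66% of all genes. The CPM of the groups were apart for 0 of the 10 members and for 11.8% of all genes. With only 10 genes these shares cannot be told apart. A fitted log2 fold change below 0 (lower in RAG1-/-Sgo1-/+) was found for 9 of the 10 members and for 45.1% of all genes. Among these members, Pi16, Eln and Fbln1 lay near 0 (-0.01, -0.02 and -0.07), and they and Tcf21 changed sign when 1 library was left out. The members were read in the same 6 libraries, so their directions are not independent and are given as a description only. The median log2 fold change was -0.22 over the members, -0.22 over the 4 alveolar genes and -0.35 over the 5 adventitial genes, beside 0.03 over all genes. Leaving out each library in turn moved the median of the members between -0.40 (without replicate 4) and -0.07 (without replicate 3), so its size rested on which libraries were kept. It was -0.26 without the library with Igkc reads and -0.33 without the library with high Xist. Without scaling for depth the median of all genes was -0.59, so directions here are those of the depth-scaled values, and of the genes named with a value above 0, Npnt, Pdgfa, Foxf1, Nebl, Scube2, Emilin1, Bgn and Col1a1 turned below 0 without that scaling.

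**Figure D1:**
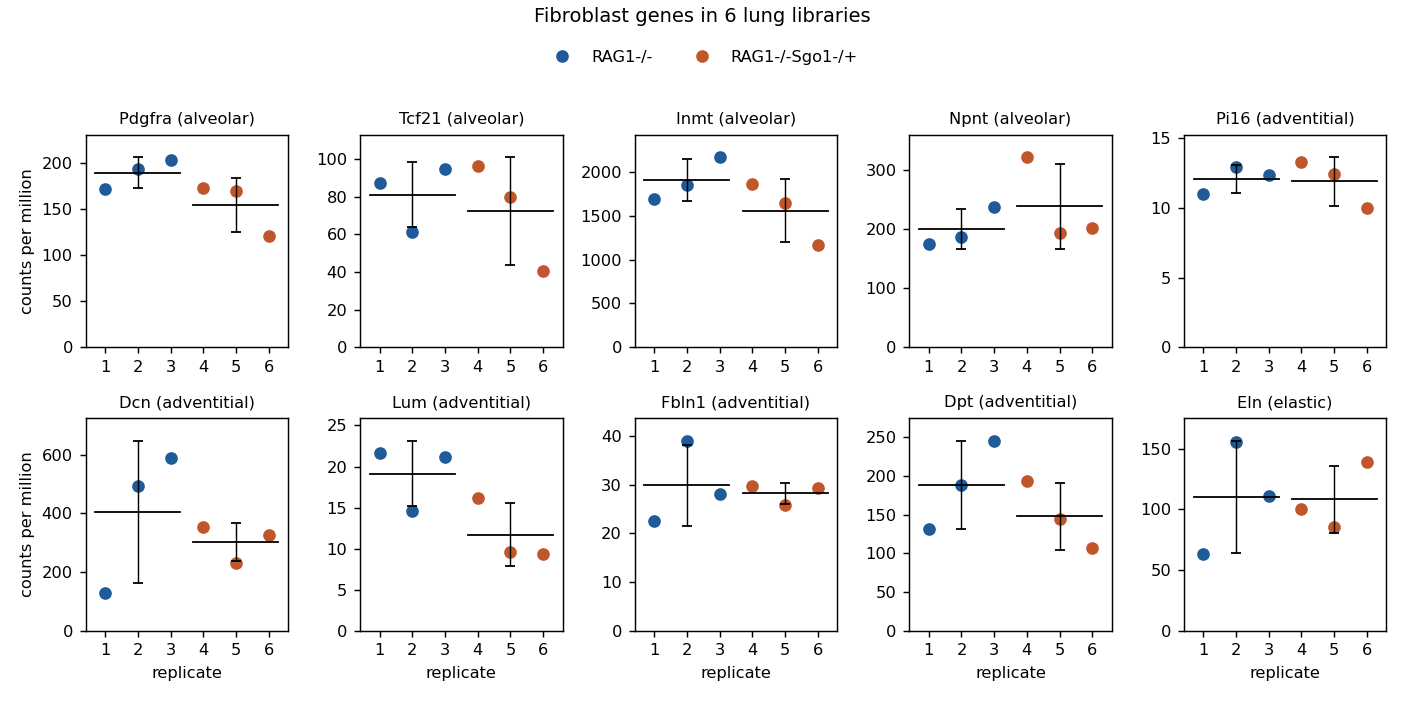
CPM (vertical axes, from 0) of the 10 fibroblast genes in each of the 6 libraries (horizontal axes, replicate number), RAG1-/- in blue and RAG1-/-Sgo1-/+ in orange, with the group mean as a line and the SD as a bar. The groups overlap in every panel, and replicate 1 is far below the other RAG1-/- libraries for Dcn, at 129 CPM against 493 and 590.

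Pdgfra encodes the receptor through which alveolar fibroblasts respond to PDGF-A and PDGF-C. Its CPM was 171, 194 and 204 in RAG1-/- mice against 173, 170 and 120 in RAG1-/-Sgo1-/+ mice, so 5 libraries lay close together and replicate 6 lay below them. The group means were 190 ± 16.5 and 154 ± 29.5 CPM (SD, n = 3 each). The fitted log2 fold change was -0.29 ± 0.16 (SE), with a 95% interval of -0.64 to 0.06 and an adjusted P of 0.832. The interval leaves out a decrease to less than 0.640 times the control level, and without replicate 6 the log2 fold change was -0.15.

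Of the other genes of this ligand and receptor family (Pdgfa, Pdgfb, Pdgfc, Pdgfd and Pdgfrb), all were tested and 0 had an unadjusted P under 0.05. The epithelial ligand Pdgfa had 32.6, 26.5 and 35.0 CPM in RAG1-/- mice against 43.4, 34.5 and 33.7 CPM in RAG1-/-Sgo1-/+, with a log2 fold change of 0.25 ± 0.17 (SE). Pdgfrb, the receptor of pericytes and smooth muscle, had a log2 fold change of -0.26 ± 0.18 (SE), which was -0.035 without replicate 2, the library with Igkc reads. The ratio of ligand to receptor was formed after their opposite directions were seen. That choice favours groups that lie apart, so no P is read from the ratio. Counts of Pdgfa over counts of Pdgfra were 0.190, 0.137 and 0.171 in RAG1-/- mice against 0.251, 0.203 and 0.280 in RAG1-/-Sgo1-/+. The groups did not overlap in this ratio.

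Tcf21 is a transcription factor required in the embryo for lung mesenchyme and kept in adult alveolar fibroblasts. Its CPM was 87.2, 61.4 and 94.7 in RAG1-/- mice against 96.4, 79.8 and 40.6 in RAG1-/-Sgo1-/+. Both the highest and the lowest library belonged to RAG1-/-Sgo1-/+, and the log2 fold change of -0.16 ± 0.28 (SE, 95% interval -0.77 to 0.45) changed sign without replicate 6, to 0.11, and was -0.32 without replicate 2 and -0.10 without replicate 1. Of the 10 genes it had the largest coefficient of variation within RAG1-/-Sgo1-/+, at 39.7%, against 21.5% within RAG1-/-.

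Inmt, an enzyme that methylates tryptamine and related amines, is among the most abundant transcripts of mouse alveolar fibroblasts. It was also the most abundant of the 10 genes, with 1700, 1852 and 2170 CPM in RAG1-/- mice against 1864, 1653 and 1167 CPM in RAG1-/-Sgo1-/+ mice. It supplied 54.3% to 67.7% of the counts of the 10 genes in a library. Replicate 6 was again lowest, and the log2 fold change was -0.29 ± 0.18 (SE, 95% interval -0.69 to 0.12, adjusted P = 0.847 by edgeR).

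Npnt, which encodes the basement membrane protein nephronectin, was the 1 member with a log2 fold change above 0, at 0.26 ± 0.21 (SE, 95% interval -0.20 to 0.72), a direction that turned when library depth was left unscaled. Its CPM was 175, 187 and 239 in RAG1-/- mice against 322, 193 and 202 in RAG1-/-Sgo1-/+ mice. The difference lay in replicate 4, and without that library the log2 fold change was -0.02. It was 0.17 without replicate 1. Nephronectin is the ligand of the integrin α8β1, whose α chain Itga8 is made by the same fibroblasts. Itga8 had 172, 191 and 252 CPM in RAG1-/- mice against 205, 169 and 114 CPM in RAG1-/-Sgo1-/+ mice, a log2 fold change of -0.33 ± 0.22 (SE). Ligand and integrin chain had nearly equal counts in each RAG1-/- library, with Npnt over Itga8 at 1.02, 0.983 and 0.947. In RAG1-/-Sgo1-/+ the ratio was 1.57, 1.14 and 1.78. The groups did not overlap in this ratio, which was formed after the opposite directions of both genes were seen. That choice favours groups that lie apart, so no P is read from the ratio. None of the 7 genes listed around nephronectin (Npnt, its relative Egfl6, the integrin chains and the basement membrane proteins of the Fras and Frem family) had an unadjusted P under 0.05, and their median log2 fold change was -0.03.

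**Figure D2:**
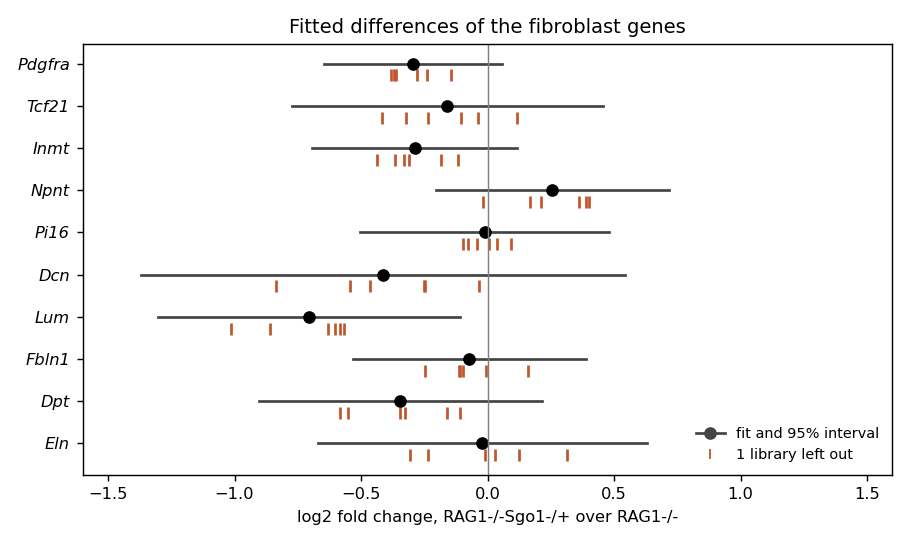
Fitted log2 fold change (horizontal axis, RAG1-/-Sgo1-/+ over RAG1-/-) of each fibroblast gene, with black points for the 6 libraries and bars for the 95% interval. Orange ticks below give the value with 1 library left out. The interval crosses 0 for all genes but Lum, and the ticks of Dcn run from -0.84 to -0.03.

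Lum and Dcn encode lumican and decorin, small leucine-rich proteoglycans that bind collagen fibrils, and both genes lie on chromosome 10. Lum had 21.7, 14.5 and 21.2 CPM in RAG1-/- mice against 16.2, 9.63 and 9.36 CPM in RAG1-/-Sgo1-/+. In the edgeR fit this gave the lowest log2 fold change of the members, -0.70 ± 0.27 (SE, 95% interval -1.30 to -0.11), or 1.63-fold lower. The unadjusted P of edgeR was 0.0252 and the adjusted P 0.832. Replicate 2 of RAG1-/- lay below replicate 4 of RAG1-/-Sgo1-/+, so the groups overlapped, and the exact two-sided permutation P was 0.2. Without the library with Igkc reads the log2 fold change was -0.86. Over all single omissions it ran from -1.02 to -0.57, and the unadjusted P was under 0.05 without replicate 2 or replicate 4 and above it without replicate 1, 3, 5 or 6.

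Dcn varied most between libraries of all the members. It had 129, 493 and 590 CPM in RAG1-/- mice against 354, 230 and 325 CPM in RAG1-/-Sgo1-/+ mice, a range of 4.57-fold, and the 3 libraries of RAG1-/-Sgo1-/+ lay inside the span of RAG1-/-. The log2 fold change was -0.41 ± 0.43 (SE, 95% interval -1.37 to 0.54, adjusted P = 0.894 by edgeR). Without replicate 1, the library with high Xist, Dcn was lower in every RAG1-/-Sgo1-/+ library, with a log2 fold change of -0.84 ± 0.20 (SE), an unadjusted P of 0.00174 and an adjusted P of 0.702. Without replicate 3 it was -0.03, and without replicate 2 it was -0.25. The relation of both proteoglycans to each other differed as well. Counts of Dcn over counts of Lum were 5.96, 33.9 and 27.8 in RAG1-/- mice against 21.9, 23.9 and 34.7 in RAG1-/-Sgo1-/+, so that replicate 1 had the lowest Dcn together with the highest Lum of the 6 libraries.

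Of the 13 genes of the small leucine-rich proteoglycan family, Dcn and Lum included, 11 were tested and 0 were called. The family had a median log2 fold change of -0.27. At an unadjusted P under 0.05 there were 2, both with lower values in RAG1-/-Sgo1-/+, beside 5.66% of all genes. Of these, 1 was Lum, already described. Beside Lum this was Aspn (asporin, another collagen-binding member), with 38.6, 31.5 and 36.3 CPM in RAG1-/- mice against 24.2, 18.9 and 18.7 CPM in RAG1-/-Sgo1-/+. The groups were apart, and the log2 fold change was -0.78 ± 0.17 (SE, 1.72-fold lower), with an unadjusted P of 0.000932 and an adjusted P of 0.832 by edgeR. Bgn (biglycan), with 530 CPM on average in RAG1-/- mice against 564 in RAG1-/-Sgo1-/+ mice, had a log2 fold change of 0.09 (-0.16 without replicate 1).

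Dpt encodes dermatopontin, a small matrix protein that binds decorin. Its CPM was 131, 188 and 245 in RAG1-/- mice against 193, 144 and 106 in RAG1-/-Sgo1-/+ mice. The groups overlapped over most of their ranges, and the log2 fold change was -0.35 ± 0.25 (SE, 95% interval -0.90 to 0.21). It lay between -0.58 and -0.11 when 1 library was left out, and was -0.55 without replicate 1.

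Fbln1 (fibulin-1, a calcium-binding matrix protein) had 22.5, 39.0 and 28.1 CPM in RAG1-/- mice against 29.7, 25.7 and 29.3 CPM in RAG1-/-Sgo1-/+. The second group lay within the first, and the log2 fold change was -0.07 ± 0.21 (SE, 95% interval -0.53 to 0.39). It was 0.16 without replicate 2 and -0.25 without replicate 1. Of the 7 fibulin genes tested, 0 had an unadjusted P under 0.05, and the median log2 fold change was -0.15. It was below 0 for 6 of them, beside 45.1% of all genes. Efemp1 (fibulin-3) had the widest range among those named, with 170, 418 and 517 CPM in RAG1-/- mice against 307, 238 and 280 CPM in RAG1-/-Sgo1-/+ mice. Its log2 fold change was -0.42, and it was -0.77 without replicate 1 and -0.09 without replicate 3.

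Pi16, a peptidase inhibitor that marks the fibroblasts of the outer vessel wall, was the steadiest of the 10 genes. It had 11.0, 12.9 and 12.4 CPM in RAG1-/- mice against 13.3, 12.4 and 9.98 CPM in RAG1-/-Sgo1-/+, a 1.34-fold range. The log2 fold change was -0.01 ± 0.22 (SE), and its 95% interval reached from 0.706 to 1.39 times the control level. Its sign is not fixed, since it was above 0 without replicate 2 (0.036), 3 or 6 and below 0 without replicate 1 (-0.079).

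Eln, the gene of tropoelastin, had 63.0, 156 and 111 CPM in RAG1-/- mice against 100.4, 85.6 and 139 CPM in RAG1-/-Sgo1-/+. The means of 109.9 ± 46.3 and 108 ± 27.5 CPM (SD, n = 3 each) were close, with a log2 fold change of -0.02 ± 0.29 (SE, 95% interval -0.67 to 0.63). It was 0.31 without replicate 2 and -0.30 without replicate 1. Of 15 elastic fibre genes (elastin, fibrillins, fibulins, microfibril proteins and lysyl oxidases), 14 were tested, 0 had an unadjusted P under 0.05, and the median log2 fold change was -0.08. The named ones ran from -0.29 for the fibrillin gene Fbn1 (-0.15 without replicate 2 and -0.49 without replicate 1), -0.26 for Mfap4 and -0.19 for the cross-linking enzyme Lox to 0.42 ± 0.20 (SE) for Emilin1.

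The 10 genes did not share 1 order of libraries. Replicate 3 was highest for Pdgfra, Inmt, Dcn and Dpt, replicate 4 for Tcf21, Npnt and Pi16, replicate 2 for Fbln1 and Eln, and replicate 1 for Lum. The lowest values fell in 2 libraries only. Replicate 6 was lowest for 6 genes (Pdgfra, Tcf21, Inmt, Pi16, Lum and Dpt), and replicate 1 for the other 4 (Npnt, Dcn, Fbln1 and Eln). Replicate 6 had the fewest counts and differed in markers of other cells too. It had the lowest sums of 4 endothelial markers (967 CPM against 1243 to 1318) and of 6 pericyte markers (112 CPM against 128 to 168). The same held for the sums of 5 alveolar type 2 cell markers (20277 CPM against 23253 to 29681) and of 4 alveolar type 1 cell markers (3595 CPM against 3862 to 6096). Of the type 2 markers only Sftpc was lowest in replicate 6, at 12426 CPM against 15470 to 20390. Sftpb, Sftpa1, Lamp3 and Abca3 were lowest in other libraries, as were Ager of the type 1 markers and Pdgfrb and Notch3 of the pericyte markers. The sum of 4 leukocyte markers was not extreme, at 8759 CPM against 7392 to 10171. Most of this sum was Lyz2, with 8400 CPM against 7233 to 10034. Ptprc was not extreme either, with 92.3 CPM against 54.7 to 104, but Itgax had 203 CPM against 25.5 to 48.5 and Cd68 had 63.0 CPM against 6.06 to 16.2. Other lists were not low in replicate 6. Its sum of 5 smooth muscle markers was the highest, at 237 CPM against 125 to 218. Its sums of ciliated cell (1154 CPM against 865 to 1413), club cell (63397 CPM against 52257 to 79644) and heart muscle markers (168 CPM against 103 to 183) lay within the range of the other libraries. The part of depth or of these cells in the low fibroblast values was not tested. The 10 genes together took 2512, 3197 and 3714 CPM in RAG1-/- mice against 3161, 2603 and 2149 CPM in RAG1-/-Sgo1-/+ mice, and these sums overlapped between the genotypes. The mean log2 CPM of the alveolar genes exceeded that of the adventitial genes by 2.70, 2.10 and 2.29 in RAG1-/- mice against 2.54, 2.65 and 2.20 in RAG1-/-Sgo1-/+, which also overlapped.

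**Figure D3:**
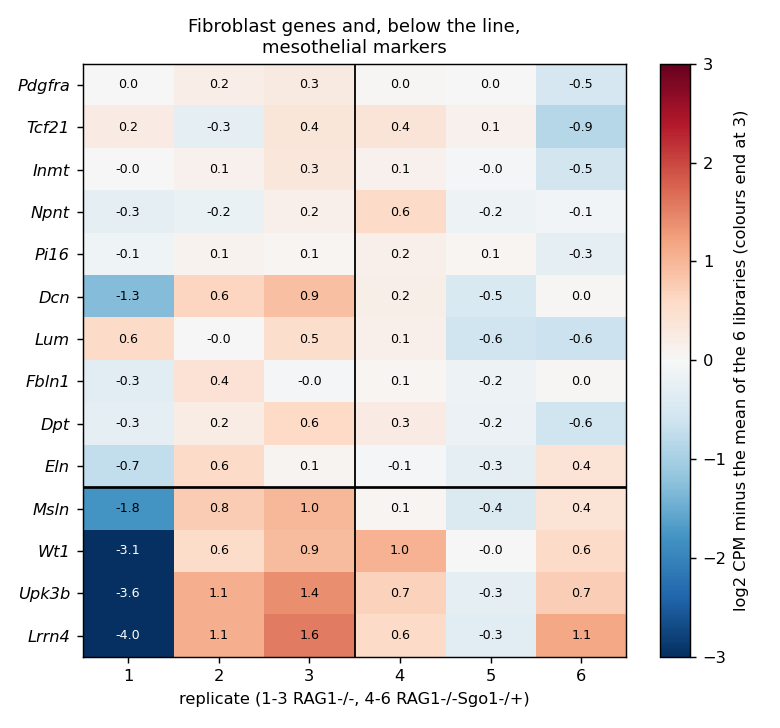
Log2 CPM of each fibroblast gene and of 4 mesothelial markers, minus the mean of the gene over the 6 libraries (colour scale, which ends at 3, with the value in each cell), against the replicate number. Replicate 1 is the lowest for Npnt, Dcn, Fbln1 and Eln and for the mesothelial markers, and replicate 6 for the other 6 fibroblast genes.

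Replicate 1 was also the library with the fewest reads of mesothelial genes, the markers of the cell layer that covers the lung surface. The 4 listed markers (Msln, Wt1, Upk3b and Lrrn4) summed to 68.6, 834 and 1031 CPM in RAG1-/- mice against 596, 342 and 695 CPM in RAG1-/-Sgo1-/+ mice, a 15.0-fold range. None was at 0 in any library. Upk3b alone had 14.1, 374 and 459 CPM in RAG1-/- mice against 282, 147 and 291 CPM in RAG1-/-Sgo1-/+ mice. The order of libraries for Dcn was close to that of the sum, so each fibroblast gene was set against the sum over the 6 libraries on log2 scales, 10 relations in all, a comparison chosen after the values were seen.

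For Dcn, Pearson's r was 0.956 and Spearman's rho was 0.943, and without replicates 1 and 5, the libraries farthest from the median sum, r was 0.916. For Eln, r was 0.866 and rho was 0.829, and r was 0.202 without those libraries, so this relation rested on them. The same held for Fbln1, with an r of 0.746, a rho of 0.600 and an r of 0.063 without them. For Lum, r was -0.267 and rho -0.143. These are descriptions of 6 libraries, and no P is read from them. The mesothelial list was picked from several marker lists because its library order resembled that of Dcn. Each genotype has too few libraries for a relation of its own, and all values share the library totals. The mesothelial sum, like Dcn, was lower in RAG1-/-Sgo1-/+ than in replicates 2 and 3, and the part of mesothelium in the Dcn levels was not tested. Replicate 1 also had the highest sum of 5 adipocyte markers, 403 CPM against 45.0 to 96.4 CPM, so adipocyte as well as mesothelial reads set this library apart.

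**Figure D4:**
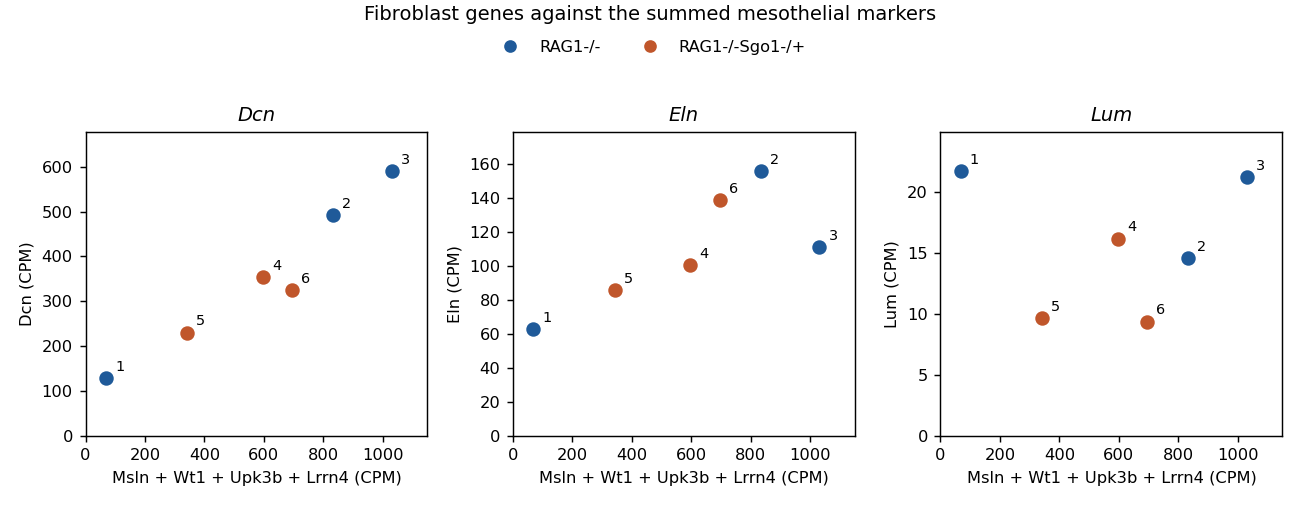
CPM of Dcn, Eln and Lum (vertical axes) against the summed CPM of 4 mesothelial markers (horizontal axes) in the 6 libraries, numbered by replicate, RAG1-/- in blue and RAG1-/-Sgo1-/+ in orange. Dcn runs from 129 CPM at a sum of 68.6 to 590 CPM at 1031, whereas Lum is highest, at 21.7 CPM, in the library with the lowest sum.

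Some other matrix and fibroblast genes from the lists were low in replicate 1 in the same way, and they are named after their values were seen. Gpc3, a cell surface proteoglycan, had 63.8, 569 and 696 CPM in RAG1-/- mice against 398, 223 and 518 CPM in RAG1-/-Sgo1-/+ mice. Sfrp2, a secreted Wnt modulator, had 2.99, 66.7 and 82.9 CPM in RAG1-/- mice against 49.3, 24.1 and 71.1 CPM in RAG1-/-Sgo1-/+. The collagen-binding gene Col14a1 had 17.2, 51.7 and 61.1 CPM in RAG1-/- mice against 35.2, 26.3 and 52.4 CPM in RAG1-/-Sgo1-/+. All of them had their lowest value in replicate 1 and their highest in replicate 3. Further genes of the same lists did otherwise. Aspn and Mfap4 were highest in replicate 1, and Itga8, Slc7a10, Ogn and Ecm2 were lowest in replicate 6.

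Other markers of alveolar fibroblasts were read from a list of 20 genes, all tested, of which 0 were called, around a median log2 fold change of -0.18. At an unadjusted P under 0.05 there were 2 with higher values in RAG1-/-Sgo1-/+ and 1 with lower, beside 5.66% of all genes. The lower one was the amino acid transporter gene Slc7a10, with 35.1, 36.6 and 29.5 CPM in RAG1-/- mice against 24.2, 26.5 and 16.5 CPM in RAG1-/-Sgo1-/+ and a log2 fold change of -0.57 ± 0.19 (SE). The higher ones were Foxf1, a transcription factor of lung mesenchyme and endothelium, with 26.1, 21.0 and 33.4 against 35.6, 35.4 and 43.0 CPM, and Nebl, with 46.0, 32.1 and 37.5 against 67.3, 54.5 and 42.4 CPM. Their log2 fold changes were 0.49 ± 0.19 and 0.50 ± 0.19 (SE), and the adjusted P of edgeR was 0.832 for all of these genes. Of the 20 genes, 3 did not overlap between the groups, beside 11.8% of all genes. These were Slc7a10, Foxf1 and Scube2, the last with 5.77, 8.89 and 8.17 against 10.7, 9.63 and 11.9 CPM. Other adventitial markers numbered 22, of which 21 were tested, with a median log2 fold change of -0.17. There 1 gene, Cd34, had an unadjusted P under 0.05, beside 5.66% of all genes. Cd34 had 169, 250 and 238 CPM in RAG1-/- mice against 181, 159 and 172 CPM in RAG1-/-Sgo1-/+ mice and a log2 fold change of -0.36 ± 0.16 (SE). Cd34 is also made by endothelium. The 4 listed endothelial markers all had log2 fold changes below 0, as did 45.1% of all genes. Their median was -0.18, and they ran from -0.34 for Tek to -0.05 for Pecam1. The part of endothelium in the level of Cd34 was not tested.

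Genes of activated fibroblasts and myofibroblasts numbered 15, all tested, with a median log2 fold change of -0.16. Postn (periostin) had 165, 209 and 197 CPM in RAG1-/- mice against 175, 169 and 94.2 CPM in RAG1-/-Sgo1-/+, and Col1a1, the main chain of type I collagen, had a log2 fold change of 0.28 ± 0.20 (SE). At an unadjusted P under 0.05 there was 1 gene of this list, beside 5.66% of all genes. This was Acta2, the smooth muscle actin, with 33.1, 44.0 and 33.7 CPM in RAG1-/- mice against 45.3, 66.3 and 73.6 CPM in RAG1-/-Sgo1-/+ and a log2 fold change of 0.74 ± 0.20 (SE). Acta2 is shared with the smooth muscle markers. Of these, 5 of 5 had log2 fold changes above 0, with a median of 0.51, whereas 45.1% of all genes were below 0. Their summed level was 149, 176 and 125 CPM in RAG1-/- mice against 165, 218 and 237 CPM in RAG1-/-Sgo1-/+ mice. Cnn1 (calponin), which is typical of smooth muscle, had 12.8, 14.1 and 10.3 CPM in RAG1-/- mice against 18.2, 24.6 and 29.9 CPM in RAG1-/-Sgo1-/+. The adjusted P of edgeR was 0.832 for both genes. The part of smooth muscle in the level of Acta2 was not tested. Cartilage markers, which mark tissue from the large airways, had summed levels of 0 to 1.25 CPM, and their 4 genes were not tested for low counts.

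**Figure D5:**
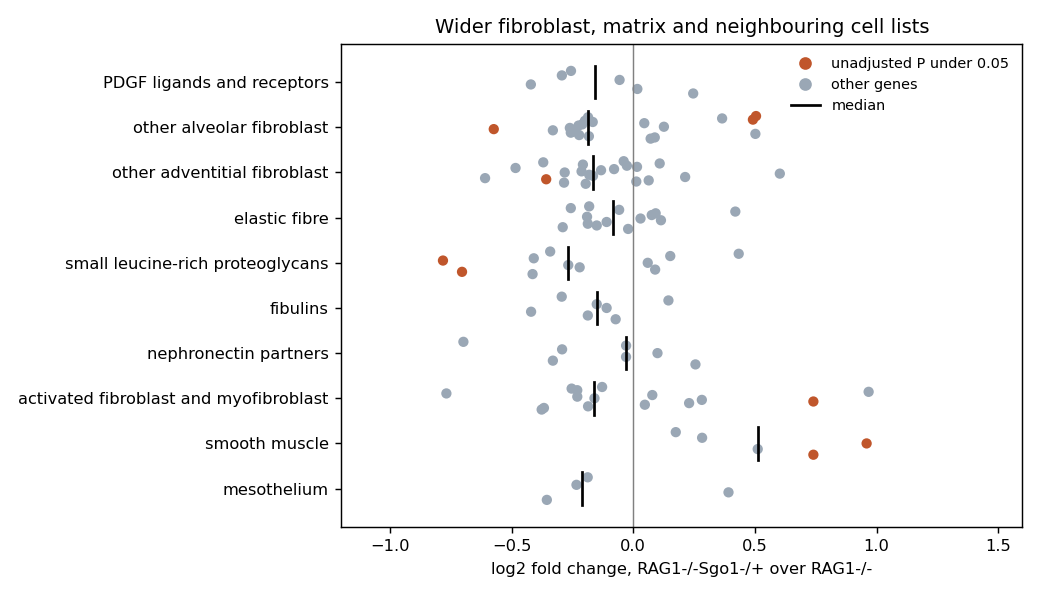
Log2 fold change (horizontal axis, RAG1-/-Sgo1-/+ over RAG1-/-) of every tested gene of the fibroblast, matrix, smooth muscle and mesothelial lists (rows), with orange points for an unadjusted P under 0.05 and a black line for the median. The medians of the fibroblast and matrix lists lie between -0.27 and -0.03, and that of smooth muscle at 0.51.

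Levels of different genes were compared per length, as CPM per kilobase of the longest coding transcript in the reference annotation, averaged over the 6 libraries. Inmt led with 1610 ± 308 CPM per kilobase (SD, n = 6), followed by Dcn with 201 ± 95.7, Dpt with 97.4 ± 29.2, Npnt with 47.6 ± 11.8, Tcf21 with 42.9 ± 12.2 and Eln with 28.3 ± 8.84 CPM per kilobase. Pdgfra had 25.2 ± 4.21, Fbln1 7.95 ± 1.52, Lum 6.30 ± 2.19 and Pi16 3.01 ± 0.318 CPM per kilobase. Of the 9 neighbouring pairs in this order, 6 overlapped over the libraries. The 3 steps without overlap lay between Inmt and Dcn, between Pdgfra and Fbln1, and between Lum and Pi16. Npnt and Tcf21 were each the higher of their pair in 3 libraries, as were Eln and Pdgfra, so these neighbours were not separated. Dcn exceeded Dpt in 5 of 6 libraries, the exception being replicate 1.

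The genes whose libraries followed the fibroblast genes most closely were sought among 12415 genes with at least 200 counts, by Pearson's r with the mean of the 10 standardised profiles over the 6 libraries. That mean was -0.52, 0.49 and 0.73 SD in RAG1-/- mice against 0.53, -0.33 and -0.89 SD in RAG1-/-Sgo1-/+, so both genotypes held high and low libraries. The 8 closest were Togaram1 (r = 0.992), Fam219b (r = 0.989), Baiap3 (r = 0.987), Dpysl5 (r = 0.986), 4932438A13Rik (r = 0.984), Nid1 (r = 0.981), Eed (r = 0.979) and Neo1 (r = 0.978). With 6 libraries and this many genes, such values describe these libraries only. Nid1 encodes nidogen-1, a basement membrane protein, and had 70.4, 99.8 and 98.8 CPM in RAG1-/- mice against 101, 73.4 and 56.2 CPM in RAG1-/-Sgo1-/+.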

How the data were processed

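Total RNA of lung tissue was extracted with Trizol, made into libraries with the Illumina TruSeq V2 kit and sequenced as read pairs on a MiSeq. The authors deposited whole-number read counts per gene, produced with GeneSifter on mouse Build 37.2 per the file headers. The submitters' notes name BWA and edgeR, and versions and the counting rule are not given in the sources used here. In each library 63.5% to 69.0% of the counts above 0 were even, so both mates of a pair may have been counted, and the number of independent fragments may be lower. There 6 further columns repeat the others with identical values and were not used. A second file holds the group means, ratios and P values of the authors' own comparison and was not used.

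Genes were matched to symbols by Entrez Gene ID (24048 of 25860, 93.0%). All genes that reached 10 counts in sum were fitted together in edgeR 4.0.16 (R 4.3.3; quasi-likelihood F test), scaled by total counts alone. Calls needed 2-fold and an adjusted P (Benjamini–Hochberg, over all genes fitted) below 0.05. Standard errors were derived from log2 fold changes and F values, and 95% intervals from the t distribution of the fit. Single values were compared with two-sided exact permutation tests (10 splits, smallest P 0.1). Alternatives used other normalizations, filters and tests (limma 3.58.1 and DESeq2 1.42.0 among them), halved counts and left-out libraries. Library size without Scgb1a1, and leaving out replicates 1 and 6 together, were added after the data were seen. The workflow was tested on simulated data. Each library is labelled as a separate sample, and nothing beyond the study's count of 3 mice a group says that they came from separate animals. P values then measure the spread between these samples.

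The 10 genes and all lists were chosen with earlier results of these data known. Named are all members, at most 5 genes per list with the lowest P, the 8 genes most like the members, and genes stated to be chosen after their values were seen. Promoters come from RefSeq on GRCm38.p6, a later build than that of the counts, so no other coordinates are given.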

Additional observations from a re-analysis of the deposited data

How the results depend on the processing

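No fibroblast gene was called under any of the 20 alternatives tried. Over all genes, 72 were called with equal library sizes, 1 (Awat1) with the Wald test of DESeq2, 1 (Fos) without replicates 1 and 6 together, 233 at an unadjusted P under 0.05 with at least 2-fold, and 0 to 1 with single libraries left out (H2-K1 without replicate 5). The members' median was -0.80 with equal library sizes, where the median of all genes was -0.59. Members with an unadjusted P under 0.05 numbered 0 to 3 with single libraries left out, being Dcn and Dpt without replicate 1, Lum, Inmt and Dpt without replicate 4, and 0 without replicate 3, 5 or 6. They numbered 2 (Dcn at -0.89 and Eln at -0.52) without replicates 1 and 6 together. Of 190 recomputed log2 fold changes of the 10 genes, 172 kept their direction and 18 turned it.

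Log2 fold changes that turned with equal library sizes, which leave depth uncorrected, were -0.34 for Npnt, -0.39 for Pdgfa, -0.62 for Pdgfb, -0.14 for Nebl, -0.17 for Foxf1, -0.088 for Scube2, -0.054 for Col15a1, -0.24 for Emilin1, -0.46 for Bgn, -0.56 for Egfl6, -0.33 for Col1a1 and -0.46 for Tgfbi. Pdgfb turned to -0.0091 with TMM factors and to -0.0047 with DESeq2 size factors. With limma-voom the turned values were 0.026 for Pi16, 0.049 for Eln, 0.18 for Pdgfd, 0.41 for Omd and 0.66 for Fras1, and with halved counts 0.0037 for Pi16. Without replicates 2 and 6 together they were 0.14 for Pi16, 0.13 for Fbln1, 0.098 for Eln, 0.42 for Omd, 0.031 for Itgb1 and -0.016 for Tgfbi. Without replicates 1 and 6 together they were 0.17 for Tcf21, 0.023 for Pi16, -0.20 for Bgn and 0.099 for Itgb1. With single libraries left out, values that turned ran from -0.42 to 0.11 for Tcf21, -0.020 to 0.40 for Npnt, -0.098 to 0.092 for Pi16, -0.25 to 0.16 for Fbln1, -0.30 to 0.31 for Eln, -0.38 to 0.49 for Pdgfd, -0.076 to 0.099 for Pdgfb, -0.32 to 0.0075 for Fbln5, -0.95 to 0.10 for Omd, -0.16 to 0.24 for Bgn, -0.57 to 0.052 for Fbln2, -0.080 to 0.24 for Egfl6, -0.85 to 0.19 for Fras1 and -0.17 to 0.053 for Itgb1. Why these values turned was not tested. None of these genes passed an adjusted P under 0.05 in any of these fits.

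No paired analysis was possible because the groups share no replicate number. With 3 libraries a group, Pdgfra had the smallest SE of the members and Dcn the largest. The 95% interval reached from 0.640 to 1.04 times the control level for Pdgfra and from 0.387 to 1.46 times for Dcn. For Pi16, the gene with the smallest range of CPM, it reached from 0.706 to 1.39 times.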
